A study of Mus musculus with 13 samples.

Results

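The genes described here are 9 genes of the TGF-beta pathway in cultured mouse astrocytes: the receptor gene Tgfbr1, the SMAD feedback genes Pmepa1, Smad7 and Skil, the latent TGF-beta genes Ltbp2, Itgb5 and Itgav, and the classic targets Tgfbi and Ccn2. They were picked by name, with earlier results of these data known. They are 9 of 1593 genes that the authors listed for at least 1 of 3 compounds. RNA was sequenced from wild-type C57BL/6 cultures grown out of the retinas and optic nerves of pups aged 1 to 3 days, in medium with 10% serum. Cells had received SB431542 (3 samples), an inhibitor of RUNX1 (3 samples), HLM006474 (3 samples) or vehicle (4 samples) for 24 h. SB431542 inhibits the kinase activity of the type I receptors of TGF-beta and of activin. The second compound, named here the RUNX1 inhibitor, acts on the transcription factor RUNX1 and its partner CBFB, and HLM006474 acts on E2F transcription factors. All groups share the serum, which itself carries TGF-beta, and the labels state no dose.

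TGF-beta is secreted in a latent form, held in the matrix by latent TGF-beta binding proteins and freed by integrins that pull on its propeptide. The free ligand joins type II and type I receptors, and the type I kinase phosphorylates SMAD2 and SMAD3, which enter the nucleus and switch on target genes. Several of those targets, such as Smad7, Skil and Pmepa1, encode proteins that damp the same signal. In the nervous system the pathway is known for its part in glial scarring and in keeping microglia in their resting state.

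The values are those of the authors' deposited tables, which give for each compound a log2 fold change over vehicle with its standard error (±) and an adjusted p from DESeq2. A gene is listed only when its adjusted p is under 0.05 and its fold change is at least about 1.5, in either direction. A gene outside a table therefore changed by less than that, missed the p threshold or was left out of the testing, and its value is unknown. Values per sample were not analysed here, so it cannot be said which samples were high or low. The depth of the libraries is unknown. Because the cultures were sequenced in bulk, fewer cells of a type and less RNA per cell cannot be told apart.

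Of 12 astrocyte markers each compound's table listed 1, namely Kcnj10 for SB431542 and Fabp7 for the other compounds, all lower. That is 8.33% of the list, beside 4.93%, 2.93% and 5.64% of all genes tested for SB431542, the RUNX1 inhibitor and HLM006474. Microglial transcripts were present too. Of 12 microglia and macrophage markers 7 were listed under SB431542 (58.3%), 5 lower and 2 higher. The count was 0 of 12 under the RUNX1 inhibitor and 4 of 12 under HLM006474 (33.3%, 3 lower and 1 higher). Cx3cr1, the fractalkine receptor gene of microglia, stood at -2.21 ± 0.081 under SB431542 in the authors' deposited table, with a mean count of 3568. Of 10 oligodendrocyte lineage markers 7 were listed under HLM006474 (70%), all lower, against 1 under SB431542, also lower, and 0 under the RUNX1 inhibitor. The share of the fall of the 9 genes that microglia or oligodendrocyte lineage cells carry was not tested.

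SB431542 lowered all 9 genes, from the receptor to the classic targets. Of the 15169 genes tested 4.93% were listed, and 2.64% were listed as lower. The 9 genes were chosen with earlier results of these data known, so no count of them can be weighed against such shares. The falls ranged from Pmepa1 at 9.30% of the vehicle level to Itgav at 65.4%. The RUNX1 inhibitor lowered 1 of the 9, Ltbp2, beside 2.32% of the 13561 genes tested that were listed as lower for that compound. HLM006474 lowered Ltbp2 and Tgfbi, 2 of the 9, beside 4.22% of the 15169 genes tested. None of the 9 was listed as higher in any of the 3 tables. The plot of the 9 genes by compound shows these values with their intervals.

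**Figure D1:**
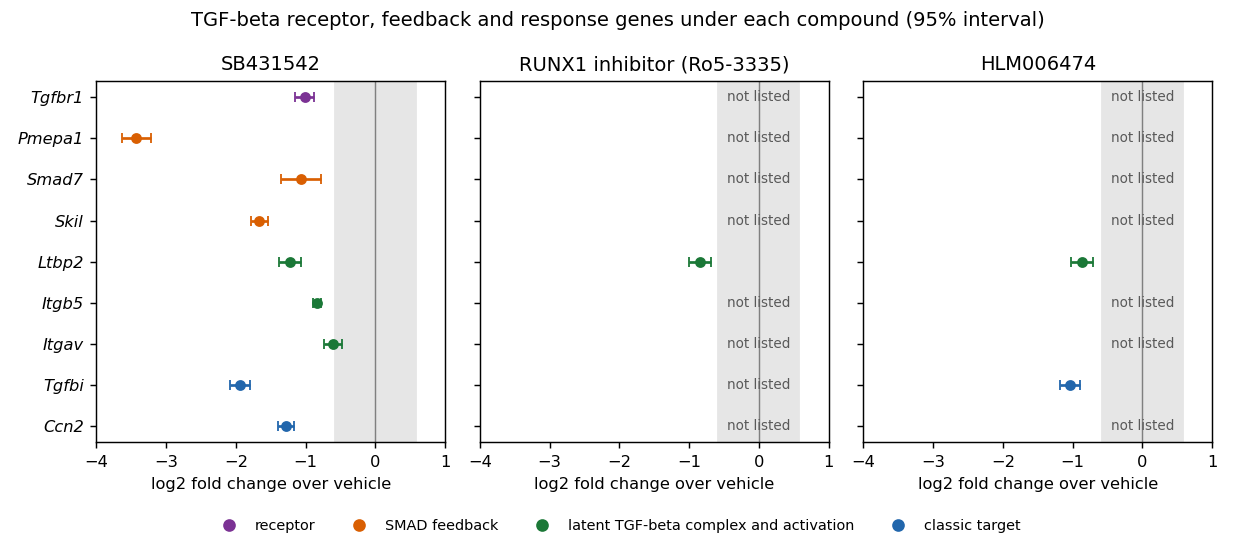
Log2 fold change over vehicle (x axis) of the 9 genes (rows) under SB431542, the RUNX1 inhibitor and HLM006474, as points with 95% intervals from the authors' standard errors, coloured by role. The grey band is the range under the fold limit of each table; all 9 genes lie left of zero under SB431542, and only Ltbp2 and Tgfbi have a value under another compound.

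The receptor gene Tgfbr1 encodes the type I TGF-beta receptor, the kinase that SB431542 blocks. It lies on chromosome 4 from 47353222 to 47414931 (GRCm38, plus strand, protein coding). Tgfbr1 stood at -1.01 ± 0.071 under SB431542 in the authors' deposited table (DESeq2, adjusted p = 1.08e-43), which is 49.5% of the vehicle level with a 95% interval of 44.9 to 54.5%. Its mean normalised count, over the libraries of all groups, was 1990 in the authors' deposited table. Such counts are not scaled for gene length and are given here for the precision they allow. Among 12 genes of the TGF-beta, activin and BMP receptor families Tgfbr1 was the 1 listed for SB431542, and none was listed for the RUNX1 inhibitor or HLM006474. Its partner Tgfbr2, the type II receptor gene, and the co-receptor genes Tgfbr3 and Eng were in none of the 3 tables.

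The feedback genes included both the deepest and the least precise changes of the 9. Pmepa1, on chromosome 2 from 173224458 to 173276533 (minus strand), encodes a membrane protein that binds SMAD2 and SMAD3 and keeps them from the receptor. It fell to 9.30% of vehicle, with a 95% interval of 8.06 to 10.7%, and its change of -3.43 ± 0.11 in the authors' deposited table was 10.8-fold. Pmepa1 had the third lowest p of the 15169 genes tested and, among 268 falling genes with a mean count of at least 100, ranked 2 by fold. Skil, on chromosome 3 from 31095058 to 31122577 (plus strand), encodes SnoN, a co-repressor that sits on SMAD complexes. Skil stood at -1.66 ± 0.062 in the authors' deposited table, or 31.6% of vehicle (29.1 to 34.4%), and its p ranked 9 among all genes tested. Smad7, the inhibitory SMAD that brings ubiquitin ligases to the type I receptor, stood at -1.06 ± 0.15 in the authors' deposited table (DESeq2, adjusted p = 1.79e-11). That is 47.8% of vehicle with an interval of 39.2 to 58.4%, the widest of the 9 on the log2 scale, and Smad7 also had the lowest mean count, 417 in the authors' deposited table. Of the 8 Smad genes Smad7 was the 1 listed for SB431542, and the other inhibitory SMAD gene, Smad6, was in none of the 3 tables. Ski, the close relative of Skil, was likewise in none of the tables.

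Among the genes of latent TGF-beta, the matrix protein gene fell furthest and the integrin genes least. Ltbp2, on chromosome 12 from 84783212 to 84876532 (minus strand), belongs to the latent TGF-beta binding protein family, although its protein is known as a microfibril component that does not bind latent TGF-beta itself. Ltbp2 stood at -1.22 ± 0.080 under SB431542 in the authors' deposited table, or 42.8% of vehicle (38.4 to 47.7%). Its relative Ltbp3, which does carry latent TGF-beta, stood at -0.77 ± 0.050 under SB431542 in the authors' deposited table, and Ltbp1 and Ltbp4 were in no table. Itgav and Itgb5 encode the chains of the integrin alpha-v beta-5, one of the integrins that bind latent TGF-beta. Itgb5, on chromosome 16 from 33829665 to 33949338 (plus strand), stood at -0.84 ± 0.029 in the authors' deposited table, which is 55.9% of vehicle (53.8 to 58.2%). Itgav, on chromosome 2 from 83724397 to 83806916 (plus strand), stood at -0.61 ± 0.066 in the authors' deposited table, or 65.4% of vehicle (59.7 to 71.5%). Itgav lay close to the fold limit: 32 of the 401 falling genes were nearer to it and 368 farther. Of 26 integrin subunit genes 5 were listed for SB431542 (beside 4.93% of all genes tested), 4 lower and 1 higher. The others were the collagen-binding subunits Itga11 at -2.10 ± 0.42 and Itga2 at -0.94 ± 0.33, with mean counts of 23.3 and 56.4, and the leukocyte subunit Itga4 at 0.67 ± 0.15, in the authors' deposited table. The beta chains Itgb1, Itgb3, Itgb6 and Itgb8, which also pair with alpha-v, were in none of the 3 tables.

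The classic targets showed a large fall on a modest count and a smaller one on a high count. Tgfbi, on chromosome 13 from 56609523 to 56639562 (plus strand), encodes a secreted matrix protein named for its induction by TGF-beta. Tgfbi stood at -1.94 ± 0.076 under SB431542 in the authors' deposited table, or 26.1% of vehicle (23.5 to 28.9%), with a mean count of 1266. Ccn2, on chromosome 10 from 24595442 to 24598683 (plus strand), encodes connective tissue growth factor and is also a target of the YAP and TEAD pathway. Ccn2 stood at -1.28 ± 0.059 in the authors' deposited table, or 41.3% of vehicle (38.1 to 44.7%), with a mean count of 5609. Its relative Ccn5 stood at -1.10 ± 0.033 under SB431542 in the authors' deposited table. Ccn1, a further target shared with YAP, was in no table. Ccn3 was not listed for SB431542 but stood at -1.15 ± 0.18 under the RUNX1 inhibitor and -0.77 ± 0.17 under HLM006474 in the authors' deposited tables.

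The order of the falls under SB431542, deepest first, was Pmepa1, Tgfbi, Skil, Ccn2, Ltbp2, Smad7, Tgfbr1, Itgb5 and Itgav. The 95% interval of the difference between neighbours left out zero for Pmepa1 and Tgfbi (1.23 to 1.74 on the log2 scale), Tgfbi and Skil (0.086 to 0.47), Skil and Ccn2 (0.22 to 0.55), Tgfbr1 and Itgb5 (0.026 to 0.33) and Itgb5 and Itgav (0.083 to 0.37). The neighbours Ccn2 and Ltbp2 did not differ beyond their error (-0.14 to 0.25), nor did Ltbp2 and Smad7 (-0.17 to 0.49) or Smad7 and Tgfbr1 (-0.27 to 0.37). These intervals treat the errors of 2 genes as independent, which genes of the same libraries need not have. The neighbours were set by sorting the same fold changes, so the sign of each difference was fixed in advance. No adjustment was made for the number of pairs. The plot of fold change by mean count sets the 9 genes among the other listed genes.

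**Figure D2:**
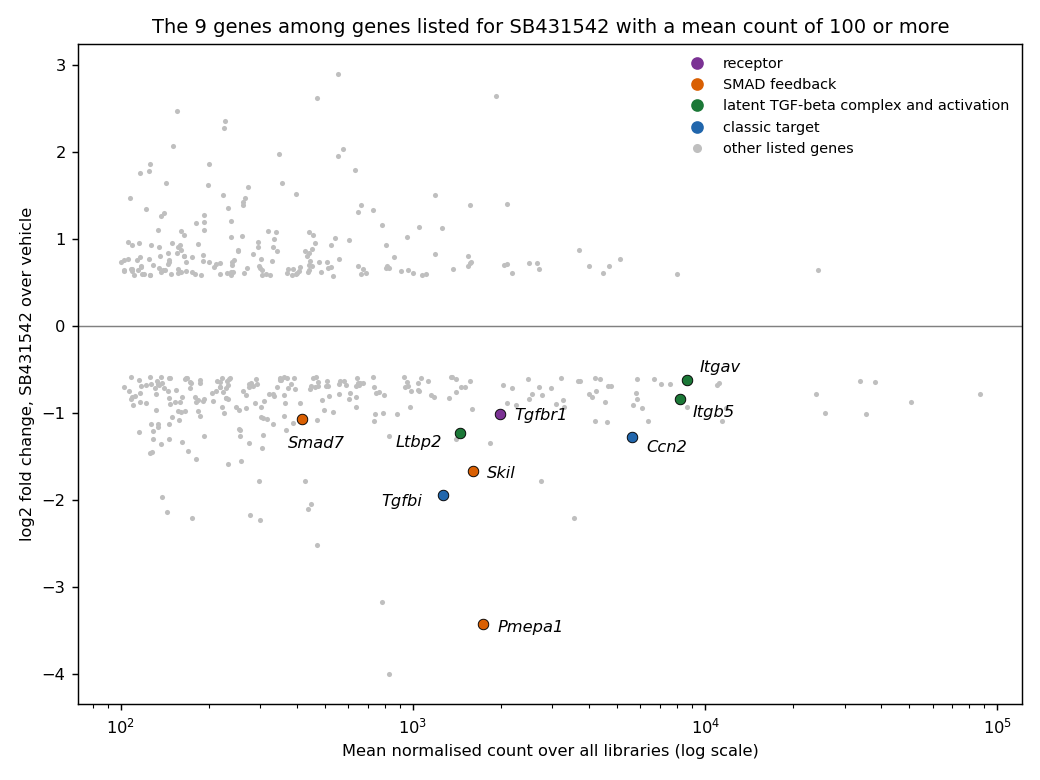
Log2 fold change of SB431542 over vehicle (y axis) against the mean normalised count over all libraries (x axis, log scale) for genes listed with a mean count of 100 or more. The coloured points are the 9 genes; Pmepa1 stands apart at -3.43 with a count of 1737, while Itgav, at a count of 8667, lies near the edge of the listed range.

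The size of a fall and its p gave different orders. Itgb5 ranked 226 of 401 falling genes by fold, yet its p was the fifth lowest of the 15169 genes tested. Its standard error of 0.029 was the lowest of the 30 genes listed for SB431542, Itgb5 included, with a mean count within 2-fold of its own, whose median error was 0.053. Its partner Itgav, with a similar mean count, had an error of 0.066, above 80.8% of the 26 genes listed with a like count. Pmepa1 also had a larger error than 82.6% of the 69 genes with a like count, 0.11 beside a median of 0.081. The error of Skil, 0.062, was above only 13.7% of 73 such genes. The plot of error by mean count shows these positions.

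**Figure D3:**
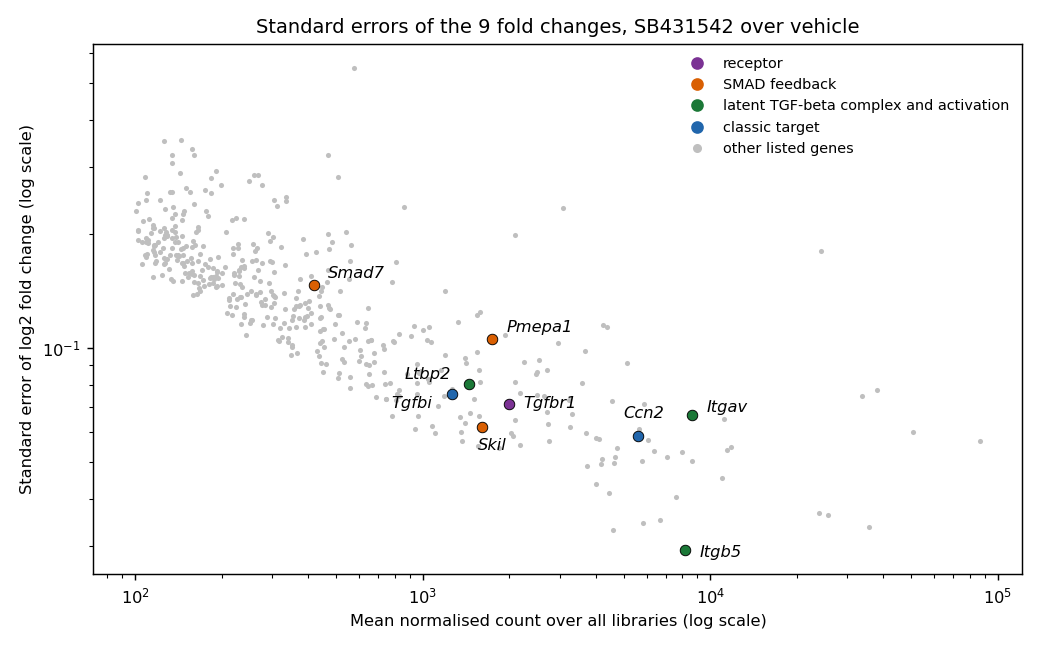
Standard error of the log2 fold change (y axis, log scale) against the mean normalised count (x axis, log scale) for genes listed for SB431542 with a mean count of 100 or more, in the authors' deposited table. Itgb5, at 0.029, lies at the lower edge for its count, and Itgav, at 0.066, lies above most genes of like count.

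Ltbp2 was the 1 gene of the 9 listed for every compound, and its fall was larger under SB431542 than under the others. It stood at -0.87 ± 0.079 under HLM006474 and -1.22 ± 0.080 under SB431542 in the authors' deposited tables, a difference (HLM006474 minus SB431542) of 0.36 with an interval of 0.14 to 0.58 (z test, adjusted p = 0.00509). Under the RUNX1 inhibitor it stood at -0.85 ± 0.079 in the authors' deposited table, 0.38 above SB431542 (0.16 to 0.60; z test, adjusted p = 0.00595). HLM006474 and the RUNX1 inhibitor left Ltbp2 at 54.9% and 55.5% of vehicle, and the difference of their log2 fold changes, -0.018, had an interval of -0.24 to 0.20 (z test, adjusted p = 0.998). For comparison, 32.9% of the 161 genes in both the HLM006474 and SB431542 tables differed at an adjusted p under 0.05. That share was 17.2% of 93 genes for the RUNX1 inhibitor and SB431542, and 9.52% of 210 genes for HLM006474 and the RUNX1 inhibitor. All comparisons share the vehicle samples.

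Tgfbi was lowered by HLM006474 to 48.5% of vehicle (44.0 to 53.5%) and by SB431542 to 26.1%. Its log2 fold change under HLM006474 was -1.04 ± 0.072 in the authors' deposited table, and the difference from SB431542 was 0.90, with an interval of 0.69 to 1.10 (z test, adjusted p = 1.78e-16). Tgfbi was not in the RUNX1 inhibitor table. Its value under HLM006474 was lower by 0.46 on the log2 scale than the fold limit of that table (z test of the excess, adjusted p = 0.000275), where 3.70% of 756 genes in 1 of these 2 tables passed. Tgfbi entered this test because it was listed for HLM006474 and absent for the RUNX1 inhibitor, which the p-value does not allow for.

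For genes listed for SB431542 only, the least difference from another compound is the part of their fall beyond that compound's limit. Against HLM006474 this least difference was 2.85 for Pmepa1, 1.08 for Skil, 0.70 for Ccn2, 0.43 for Tgfbr1 and 0.26 for Itgb5, on the log2 scale. These 5 passed the z test of the excess, with Tgfbr1 at the highest adjusted p of them, 0.000369, where 9.38% of 1279 genes in 1 of the 2 tables passed. Against the RUNX1 inhibitor the same 5 genes and Tgfbi passed, with a least difference of 1.36 for Tgfbi, where 13.3% of 877 genes passed. Smad7 did not pass against either compound (z test, adjusted p = 0.154 for HLM006474 and 0.123 for the RUNX1 inhibitor), although its excess was 0.48 in both. This test counts the error of the shared vehicle samples in both compounds; with the vehicle part of the variance taken out, Smad7 passed against both (z test, adjusted p = 0.0159 for HLM006474 and 0.0127 for the RUNX1 inhibitor). Itgav did not pass either, with an excess of 0.033 in both. For Itgav a smaller response to HLM006474 or the RUNX1 inhibitor than to SB431542 is therefore not shown, and for Smad7 the call depends on how the error is taken. The bound takes the error of a gene to be alike under both compounds. Each gene entered this test because it was listed for SB431542 and absent for the other compound. The same SB431542 value was then tested, and the p-values do not allow for that selection. The plot of differences from SB431542 gives both kinds of value.

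**Figure D4:**
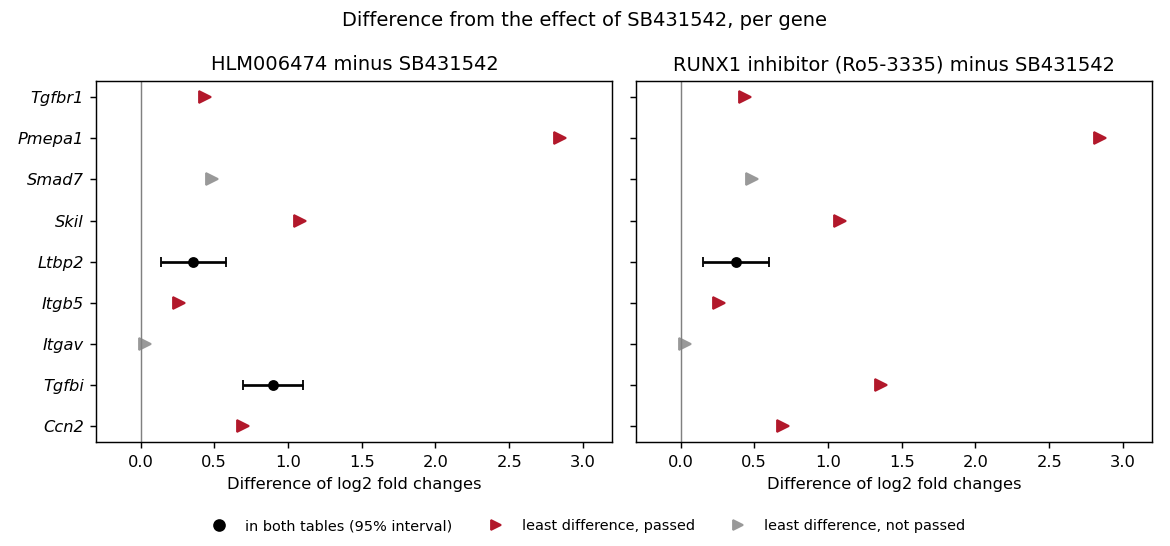
Difference of log2 fold changes (x axis) for HLM006474 minus SB431542 and the RUNX1 inhibitor minus SB431542, per gene (rows). Black points with 95% intervals are genes in both tables; triangles are least differences of genes in the SB431542 table alone, red where the z test of the excess passed and grey for Smad7 and Itgav, where it did not with the vehicle error counted in both compounds.

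Promoter windows from RefSeq, of 250 bases before and 50 bases after a transcript start on GRCm38.p6, were at hand for 5 of the 9 genes: Tgfbr1 (2 windows), Ltbp2, Itgb5, Itgav and Tgfbi. Those of Tgfbi and Ltbp2 are printed because these genes fell under more than 1 compound. That of Itgb5 is printed as 1 example of a gene listed for SB431542 alone. Tgfbr1 and Itgav were also listed for SB431542 alone, and their windows are not printed. They read 5′ to 3′ on the strand of the gene, with the CAGA box core (CAGAC, or GTCTG on the other strand), a sequence that SMAD3 and SMAD4 bind, in capitals.
Tgfbi, chr13:56609336-56609635, plus strand: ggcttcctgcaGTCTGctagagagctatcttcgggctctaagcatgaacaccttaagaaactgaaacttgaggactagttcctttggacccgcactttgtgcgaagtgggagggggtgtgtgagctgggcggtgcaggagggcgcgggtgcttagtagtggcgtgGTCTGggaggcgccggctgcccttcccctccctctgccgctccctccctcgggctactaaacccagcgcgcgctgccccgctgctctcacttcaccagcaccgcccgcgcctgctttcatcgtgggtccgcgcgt
Ltbp2, chr12:84876442-84876741, minus strand: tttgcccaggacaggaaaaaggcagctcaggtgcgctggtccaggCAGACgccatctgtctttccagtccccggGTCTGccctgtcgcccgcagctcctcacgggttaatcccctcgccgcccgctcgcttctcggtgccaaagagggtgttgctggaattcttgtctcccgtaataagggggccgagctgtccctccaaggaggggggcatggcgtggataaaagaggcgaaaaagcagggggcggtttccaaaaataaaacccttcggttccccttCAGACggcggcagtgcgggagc
Itgb5, chr16:33829415-33829714, plus strand: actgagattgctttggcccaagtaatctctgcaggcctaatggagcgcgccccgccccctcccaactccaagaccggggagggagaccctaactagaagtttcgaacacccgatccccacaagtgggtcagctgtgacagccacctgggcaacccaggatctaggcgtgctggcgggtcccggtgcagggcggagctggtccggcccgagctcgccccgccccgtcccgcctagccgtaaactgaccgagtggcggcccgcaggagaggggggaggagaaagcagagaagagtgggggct

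The core occurred 3 times in the Ltbp2 window, with its first base 205 and 176 bases before the start and at base 29 of the transcript. It occurred 2 times in the Tgfbi window, 239 and 85 bases before the start. The windows of Itgb5 and Itgav and the first Tgfbr1 window held none, and the second Tgfbr1 window, from a start farther into the gene, held 1. The core is common: 49.6% of all 32851 windows in the RefSeq table held it on either strand. The longer SMAD palindrome GTCTAGAC, which 0.213% of all windows held, was in none of the 6 windows. The same was true of a TEAD sequence (GGAATG or CATTCC, in 14.7% of all windows), a RUNX sequence (TGTGGT or ACCACA, 16.8%) and an E2F sequence (TTTGGCGC or GCGCCAAA, 0.514%). These are letter matches in short windows and say nothing of binding.

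Other genes of the pathway gave a background for the 9. Of 84 further ligand, receptor, SMAD, latent complex and target genes 18 were listed for SB431542, which is 21.4% beside 4.93% of all genes tested, 17 of them lower and 1 higher. For the RUNX1 inhibitor 6 of the 84 were listed, or 7.14% beside 2.93% of all genes, all lower. For HLM006474 it was 6 of the 84, 7.14% beside 5.64% of all genes, 5 lower and 1 higher. The lists were drawn up with earlier results of these data known.

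Among 8 ligand genes the activin subunit gene Inhba was the 1 listed for each compound, at -1.12 ± 0.26 under SB431542, -0.94 ± 0.26 under the RUNX1 inhibitor and -0.99 ± 0.26 under HLM006474 in the authors' deposited tables. That is 12.5% of the list, beside 4.93%, 2.93% and 5.64% of all genes tested for SB431542, the RUNX1 inhibitor and HLM006474. The genes of TGF-beta itself, Tgfb1, Tgfb2 and Tgfb3, were in none of the tables. Of 10 further receptor and co-receptor genes none was listed for any compound. Of 18 SMAD and regulator genes 1 was listed, for SB431542 (5.56% beside 4.93% of all genes tested). It was Ldlrad4, a relative of Pmepa1 that also holds back SMAD2 and SMAD3, at -2.17 ± 0.13 in the authors' deposited table (DESeq2, adjusted p = 6.12e-60).

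Of 21 genes for storage and activation of latent TGF-beta 6 were listed for SB431542 (28.6% beside 4.93% of all genes tested), 5 lower and 1 higher. The microfibril genes Fbn1 and Fbn2, whose fibrillins anchor latent binding proteins, had values of -0.91 ± 0.091 and -0.82 ± 0.18 in the authors' deposited table. The proteoglycan gene Bgn, which binds TGF-beta, stood at -0.84 ± 0.062 and Emilin1, a matrix protein that restrains processing of the precursor, at -0.80 ± 0.10 in the authors' deposited table. The higher gene was Nrros, which holds latent TGF-beta on microglia, at 1.08 ± 0.13 in the authors' deposited table. Fbn2 was also lower under the RUNX1 inhibitor and HLM006474, at -0.78 ± 0.18 and -1.25 ± 0.19 in the authors' deposited tables. Lrrc32, the relative of Nrros that presents latent TGF-beta on other cells, was listed for the RUNX1 inhibitor alone, at -0.74 ± 0.21 in the authors' deposited table.

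Of 27 other direct targets 10 were listed for SB431542 (37.0% beside 4.93% of all genes tested), all lower. Timp1, an inhibitor of matrix proteases, stood at -0.98 ± 0.10 and Fn1, fibronectin, at -0.87 ± 0.060, in the authors' deposited table. The targets listed for the RUNX1 inhibitor were Acta2, Tagln and Lrrc15, all lower, 3 of 27 (11.1% beside 2.93% of all genes tested). For HLM006474 the same 3 genes were lower and Klf10, an early TGF-beta-induced repressor, was higher, at 0.84 ± 0.078 in the authors' deposited table. That makes 4 of 27, or 14.8% beside 5.64% of all genes tested. Acta2, smooth muscle actin, stood at -1.19 ± 0.078 under the RUNX1 inhibitor, -1.09 ± 0.078 under HLM006474 and -0.64 ± 0.078 under SB431542 in the authors' deposited tables. Acta2 thus fell further under both other compounds than under SB431542, by -0.55 for the RUNX1 inhibitor minus SB431542 (-0.77 to -0.34; z test, adjusted p = 6.33e-06) and by -0.44 for HLM006474 minus SB431542 (-0.66 to -0.23; z test, adjusted p = 0.000238). For Ltbp2 and Tgfbi the difference from SB431542 had the opposite sign. Tagln, an actin-binding gene, differed from SB431542 under the RUNX1 inhibitor (-0.50; z test, adjusted p = 2.48e-05) and missed the threshold under HLM006474 (-0.25, interval -0.46 to -0.043; z test, adjusted p = 0.0539). Lrrc15, a membrane protein gene with a mean count of 39.1, differed the other way, at -0.98 ± 0.26 under HLM006474 and -2.32 ± 0.31 under SB431542 in the authors' deposited tables (z test, adjusted p = 0.00401). The plot of pathway lists gives all counts.

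**Figure D5:**
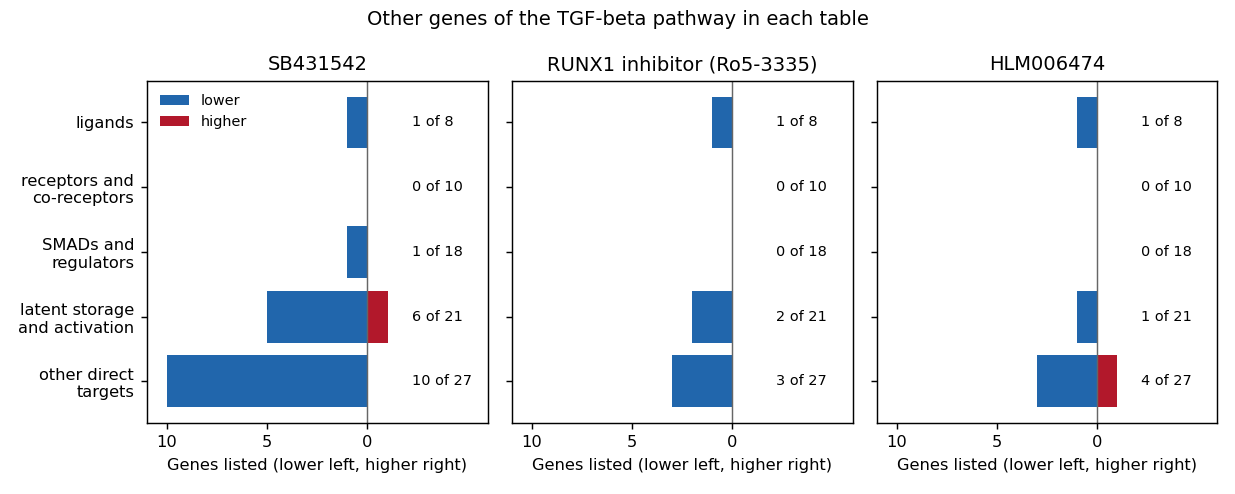
Number of genes listed as lower (blue, to the left of zero) or higher (red, to the right) in 5 lists of further TGF-beta pathway genes, for each compound, with the count of listed genes out of the list beside each bar. Under SB431542 10 of 27 direct targets and 6 of 21 latent complex genes were listed, beside 4.93% of all genes tested. No receptor or co-receptor was listed for any compound.

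The genes nearest to Ltbp2 in pattern, by Euclidean distance over the 3 log2 fold changes among 56 other genes listed for every compound, were Cacna1c (0.13), Ppfia4 (0.18) and Inhba (0.18). Their own errors under SB431542, 0.19 for Cacna1c, 0.19 for Ppfia4 and 0.26 for Inhba in the authors' deposited table, exceed these distances. Cacna1c, a calcium channel gene, stood at -1.26 ± 0.19 under SB431542, -0.79 ± 0.19 under the RUNX1 inhibitor and -0.76 ± 0.19 under HLM006474 in the authors' deposited tables. For Tgfbi, over 2 log2 fold changes and 103 other genes listed for SB431542 and HLM006474 only, the nearest were Serinc2 (0.11), Col14a1 (0.15) and Atp6v0a4 (0.42). Col14a1, a fibril-associated collagen gene, stood at -1.16 ± 0.14 under HLM006474 and -2.04 ± 0.15 under SB431542 in the authors' deposited tables. The mean counts of Serinc2 and Atp6v0a4 were 33.7 and 17.4, and their own errors, 0.35 and 0.54 under SB431542 in the authors' deposited table, exceed these distances.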

How the data were processed

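Reads were processed with CASAVA 1.8, STAR 2.7 and DESeq2 1.30.1 on GRCm38, per the submitters' processing notes. How reads were counted, and on which annotation and strand, is not given in the sources used here. For each compound the authors deposited 1 table. Per the file headers it holds a mean normalised count (a signal averaged over libraries), a log2 fold change and the standard error of that change, a Wald score, a p-value and an adjusted p-value. The mean counts are identical in the 3 tables, so all groups shared 1 fit. The calls are the authors' own, and no samples were regrouped. Whether samples of a group were separate cultures is not stated, so the p-values cover the spread among these samples alone, possibly a technical one.

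The number of genes tested was recovered as the smallest number that makes the rank, p times that number over adjusted p, whole within 0.02 for most genes. It did so for 80.5%, 83.6% and 81.1% of the ranks used for SB431542, the RUNX1 inhibitor and HLM006474. Differences between compounds were tested with a 2-sided z test, with both errors added in quadrature, with Benjamini-Hochberg adjustment over all genes in both tables of the pair. For genes in 1 table, the excess over the other table's limit was tested in the same way. An absence for another reason, such as an outlier filter, would void that bound. Scripts ran in Python 3.11.15 with numpy 2.4.6, pandas 2.3.3 and scipy 1.17.1. Recovery of the number of genes tested and the z test of differences were tried on simulated data without a fold limit. The test of the excess over a limit was not simulated. Gene positions are from GENCODE for GRCm38.

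All 9 genes are named in every table, pathway genes where they are listed, and the 3 nearest genes for members of 2 or more tables. Gene families and promoter sequences were chosen after the values were seen. The genes and lists were chosen with earlier results of these data known. The remaining marker lists were fibroblast and mural, neuronal and endothelial genes. Of 8 fibroblast and mural genes 3 were listed for HLM006474, 2 lower and 1 higher (37.5% beside 5.64% of all genes tested), and 0 for the other compounds. Of 6 neuronal genes 0 were listed for SB431542, 2 for the RUNX1 inhibitor (1 lower and 1 higher) and 1 for HLM006474 (lower). The share was 33.3% for the RUNX1 inhibitor, beside 2.93% of all genes tested, and 16.7% for HLM006474, beside 5.64%. Of 6 endothelial genes 0 were listed for each compound.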

Additional observations from a re-analysis of the deposited data

How the results depend on the processing

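With an absolute log2 fold change of at least 1 in place of the authors' limit, the count of the 9 genes went to 0 for the RUNX1 inhibitor and 1 for HLM006474, and it was 7 for SB431542, where Itgb5 and Itgav no longer counted. The 84 further pathway genes then gave 7 under SB431542, and 2 under each of the other compounds. Fewer genes reach the larger fold, which is the construction of that limit. The share of all genes tested that reaches it was not computed, so these counts have no background beside them. With an adjusted p under 0.01, a mean count of at least 100 or Bonferroni adjustment, every listed gene of the 9 kept its call. With the vehicle part of the variance taken out of the differences, Smad7 passed against SB431542 for HLM006474 (z test, adjusted p = 0.0159) and the RUNX1 inhibitor (z test, adjusted p = 0.0127), the cause being the smaller error of that setting. No other difference between compounds for these genes crossed its threshold under the 3 alternatives run. No paired analysis was possible because the tables hold no values per sample. For the same reason leaving out a replicate, another normalization and other count tests were not run, and the precision cannot be checked against single libraries.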
